A study of Homo sapiens with 4 samples.

Results

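The RNA of MHC class II genes was followed in 4 lines of HAP1, a near-haploid human line that comes from a chronic myeloid leukaemia line and is widely used for gene knockouts. The members were chosen by name, as every gene probe whose symbol starts with HLA-D together with CD74 and CIITA. This gave 9 of 785 gene probes: HLA-DMA, HLA-DMB, HLA-DOB, HLA-DPA1, HLA-DPB1, HLA-DQA, HLA-DQB1, HLA-DRA and HLA-DRB. CD74 and CIITA were not analysed here. The assay was NanoString counting, which tallies barcoded probes hybridised to RNA one molecule at a time, with no amplification step. The groups were wild-type HAP1 (WT #1 and WT #7) and MATR3 knockout HAP1 (KO #1 and KO #5), with 1 sample of total RNA from each line. MATR3 encodes matrin 3, a nuclear protein that binds RNA and DNA. MATR3 was not analysed here, and so the genotype labels could not be checked against its RNA. Per the labels' protocols the knockout lines are clones bought from a supplier and the wild-type lines are the same supplier's controls, and all were grown in the same medium with no further treatment named. Each line is therefore 1 clone or 1 supplier batch, and p-values refer to the spread between such lines. The main fit also draws each gene's spread toward a trend over all tested genes. Its p-values thus do not measure the spread between these lines alone.

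MHC class II molecules are pairs of an alpha and a beta chain that carry peptides from the endosome to the surface of antigen-presenting cells, where helper T cells read them. HLA-DR, HLA-DQ and HLA-DP are the presenting molecules. HLA-DM exchanges peptides on them, and HLA-DO, made of HLA-DOA and HLA-DOB, restrains HLA-DM and is known mainly from B cells and thymic epithelium. Transcription of these genes rests on a conserved promoter module, the X and Y boxes, and on the co-activator CIITA, which interferon-gamma induces in cells that do not normally carry class II.

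The promoter module is shown for 4 class II genes because it is the element on which class II transcription rests. RefSeq promoters (GRCh38.p14, 250 bases before to 50 after each start site) were matched for 10 genes that fit 8 of the 9 probe names, with 11 promoters in all. The names HLA-DRB and HLA-DQA do not say which gene the probe reads, so HLA-DRB1 and HLA-DRB5 were taken for the first and HLA-DQA1 and HLA-DQA2 for the second. The search used an X-box-like word, CCAGNNNCNGATG, and a Y-box-like word, ATTGG, which is CCAAT read on the other strand, and covered both strands. The X-like word holds the letters that the 4 promoters shown have in common, the Y-like word was chosen after they had been read, and the words do not overlap in them. Each sequence runs 5′ to 3′ on the gene's strand, which is the minus strand for all 4 genes, with the 2 words in capitals.
HLA-DOB: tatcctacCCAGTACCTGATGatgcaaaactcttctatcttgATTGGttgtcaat
HLA-DRB1: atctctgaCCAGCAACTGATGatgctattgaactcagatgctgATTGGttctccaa
HLA-DQB1: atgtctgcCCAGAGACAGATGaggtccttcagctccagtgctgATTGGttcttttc
HLA-DMA: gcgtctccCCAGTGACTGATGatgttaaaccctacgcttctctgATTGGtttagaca
They lie at chr6:32817088-32817142, chr6:32589882-32589937, chr6:32666733-32666788 and chr6:32953164-32953220, all upstream of the annotated start site.

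The gap between both words was 21 bases in HLA-DOB, 22 in HLA-DRB1 and HLA-DQB1, and 23 in HLA-DMA. The same arrangement, with the Y-like word at most 25 bases after the X-like word and before the start site, was found in 5 of the 11 class II promoters and in 7 of all 35116 promoters (0.0199%). The X-like word alone was in 0.353% of all promoters and the Y-like word in 34.6%. Because the words were read from class II promoters, this contrast is a description only. For the same reason, which probes have the arrangement was set by the choice of the 4 genes, so it cannot be related to level across the probes. Of the 4 probes whose genes had it, HLA-DOB and HLA-DRB were above the background limit described next in all lines, and HLA-DQB1 and HLA-DMA in none.

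The values are normalised counts, that is, whole probe counts multiplied by 1 factor per sample. Total gene counts were 448610 to 571767 per sample. In bulk RNA of this kind, fewer cells with an RNA and less of it per cell cannot be told apart. The 8 negative control probes, which match no human RNA, had means of 7.63 to 10.0 raw counts per sample. Each sample's background limit was their mean with 2 SD added, on the normalised scale, which gave 25.7 and 21.1 in WT #1 and WT #7 and 19.5 and 21.7 in KO #1 and KO #5. KO #5 had the fewest gene probes above its limit, 409 where the other lines had 448 to 558. Probes differ in how well they bind, so levels are compared with the limit and between samples, not from gene to gene.

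Of the 9 class II probes, 2 lay above the limit in all 4 lines, 3 in some lines and 4 in none. Over all 785 gene probes, 49.6% lay above it in all 4 lines and 25.4% in none. HLA-DOB and HLA-DRB were the 2 probes above it throughout. HLA-DQA was above it in 3 lines, HLA-DRA in 2 and HLA-DPA1 in 1. KO #1 had 5 of the 9 probes above its limit, WT #7 had 4, WT #1 had 3 and KO #5 had 2.

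**Figure D1:**
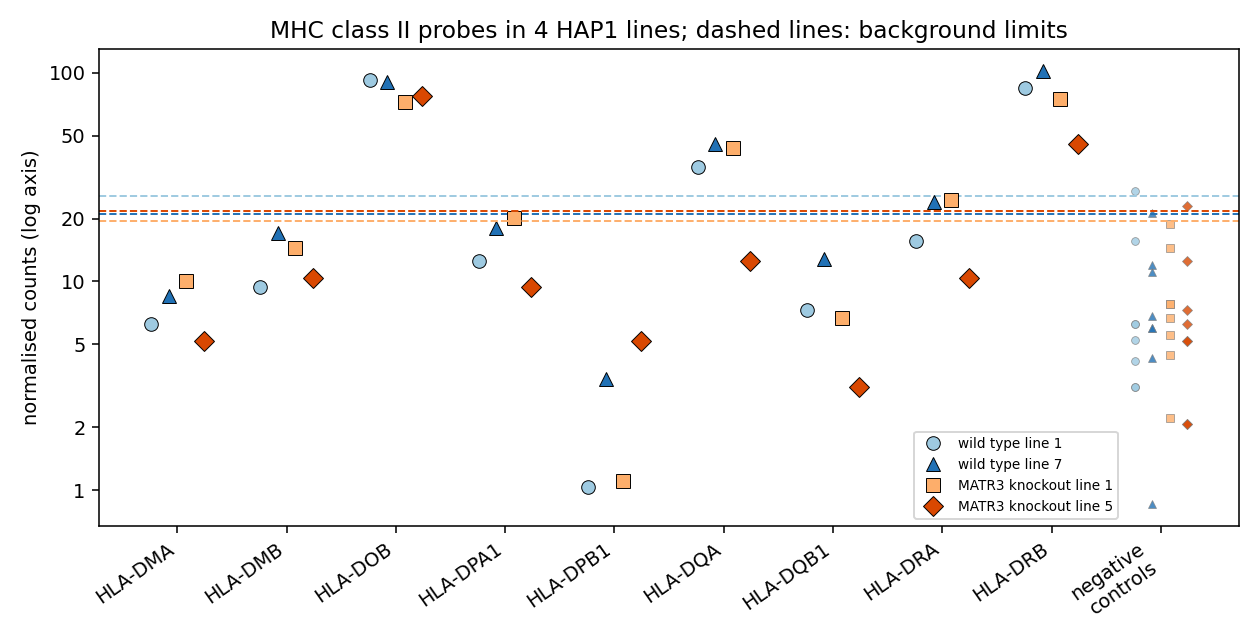
Normalised counts (log axis) of the 9 class II probes and of the 8 negative control probes, with a point for each of the 4 lines; dashed lines in the same colours mark each line's background limit, 19.5 to 25.7. HLA-DOB and HLA-DRB sit above every limit, while HLA-DMA, HLA-DMB, HLA-DPB1 and HLA-DQB1 lie among the negative controls.

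HLA-DOB, the beta chain of the HLA-DM inhibitor HLA-DO, was the steadiest of the 9 probes. It was at 91.8 and 89.8 normalised counts in WT #1 and WT #7, and at 72.3 and 77.0 in KO #1 and KO #5. Both knockout values were below both wild-type values, and the highest sample exceeded the lowest by only 1.27-fold. In every line the value was 3.55 to 4.25 times the background limit. The raw counts behind these values were 88, 105, 65 and 74 in the same order. Exact Poisson 95% intervals, which cover counting error only, ran from 73.6 to 113 and from 73.5 to 109 normalised counts in WT #1 and WT #7. In KO #1 and KO #5 they ran from 55.8 to 92.2 and from 60.5 to 96.7, so the intervals of the groups overlapped.

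The order of the lines for HLA-DOB was thus WT #1, WT #7, KO #5 and KO #1, and the Poisson intervals of neighbours in it overlapped. Wild-type lines averaged 90.8 ± 1.39 and knockout lines 74.7 ± 3.31 (SD, n = 2 each). The log2 fold change, knockout minus wild type on the log2(value + 1) scale, was -0.28 ± 0.20 (SE), with a 95% interval from -0.72 to 0.16. It did not pass (limma adjusted p = 0.46 over all 514 tested genes). The interval still allows a decrease of 0.72 or an increase of 0.16 on the log2 scale. An exact permutation test of 2 against 2 samples cannot go below a two-sided p of 0.333.

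HLA-DRB, the beta chain of HLA-DR, had a larger difference than HLA-DOB, though it did not pass either. It was at 84.5 and 101.8 normalised counts in WT #1 and WT #7, and at 74.6 and 45.8 in KO #1 and KO #5. Both knockout values were below both wild-type values, and KO #5 was the lowest by far. The group means were 93.2 ± 12.2 and 60.2 ± 20.3 (SD, n = 2 each). On the log2 scale the knockout minus the wild type was -0.66 ± 0.26 (SE; limma adjusted p = 0.188), with a 95% interval, not adjusted for the number of genes, from -1.23 to -0.08. Its size rested on KO #5. Without that line it was -0.31 (adjusted p = 0.689), and without KO #1 it was -1.003 and passed (adjusted p = 0.022).

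HLA-DQA, the alpha chain of HLA-DQ, was at 1.38 to 2.22 times the limit in 3 lines and split the knockout lines. Its values were 35.5 and 45.4 normalised counts in WT #1 and WT #7, 43.4 in KO #1 and 12.5 in KO #5. KO #1 lay within the wild-type range, and KO #5 fell short of its limit of 21.7. The 2 knockout lines differed 3.47-fold, and their Poisson intervals, 30.9 to 59.3 and 6.45 to 21.8 normalised counts, did not overlap. The log2 fold change of the groups was -0.75 ± 0.50 (SE; limma adjusted p = 0.436), with a 95% interval from -1.84 to 0.35. Without KO #5 it turned to 0.11 (adjusted p = 0.931), and without KO #1 it was -1.61 and passed (adjusted p = 0.00409).

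With limma, 0 of the 3 class II probes tested (HLA-DOB, HLA-DRB and HLA-DQA) passed an adjusted p of 0.05, where 8.17% of all 514 tested genes did. At an unadjusted p under 0.05, 1 of the 3, HLA-DRB, passed, and 19.8% of tested genes did. The edgeR test on the recovered counts also called 0 of the 3, where 7.98% of genes were called, and put 1, HLA-DRB (adjusted p = 0.205), past an unadjusted p of 0.05, where 19.1% were. The other 6 probes had a mean under 20 over the 4 lines and were not in the test, so the 3 are not all members. Their values below come from a fit without the filter, in which 0 of all 9 probes passed and 4.97% of 785 genes did. In that fit HLA-DRB was again the only member past an unadjusted p of 0.05, against 15.7% of all genes.

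Among the probes below the filter, HLA-DRA, the alpha chain that pairs with HLA-DRB, was at 15.7 and 23.96 normalised counts in WT #1 and WT #7 and at 24.5 and 10.4 in KO #1 and KO #5. It crossed the limit in WT #7 and KO #1 and the groups overlapped. Its log2 fold change was -0.26 ± 0.47 (SE), and 0.32 without KO #5. HLA-DPA1, the alpha chain of HLA-DP, followed the same order of lines, with 12.5 and 18.0 in WT #1 and WT #7 and 20.03 and 9.37 in KO #1 and KO #5. It exceeded the limit in KO #1 only, by 1.03 times, and differed by -0.12 ± 0.49 on the log2 scale (SE), or by 0.39 without KO #5.

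The beta chains HLA-DPB1 and HLA-DQB1 were at the level of the negative controls. HLA-DPB1 had 1 and 4 raw counts in WT #1 and WT #7 and 1 and 5 in KO #1 and KO #5, and its level was below the mean of the negative controls in every line. HLA-DQB1 was at 7.30 and 12.8 normalised counts in WT #1 and WT #7 and at 6.68 and 3.12 in KO #1 and KO #5, with both knockout values below both wild-type values. Its log2 difference was -0.93 ± 0.58 (SE; limma adjusted p = 0.444 without a filter), -0.48 without KO #5 and -0.43 with a pseudocount of 10. That difference rests on 22 raw counts over both wild-type lines and 9 over both knockout lines, all below the limit.

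HLA-DMA and HLA-DMB, the chains of the peptide exchanger HLA-DM on which HLA-DO acts, were below the limit in all lines. HLA-DMA was at 6.26 and 8.56 normalised counts in WT #1 and WT #7 and at 10.0 and 5.20 in KO #1 and KO #5. HLA-DMB was at 9.39 and 17.1 in WT #1 and WT #7 and at 14.5 and 10.4 in KO #1 and KO #5. Both overlapped between the groups, with log2 fold changes of -0.01 ± 0.55 and -0.05 ± 0.49 (SE), or 0.40 and 0.17 without KO #5. Neither HLA-DM chain exceeded this limit and no difference was detectable at this depth, while the HLA-DOB probe was above the limit in the same samples. For HLA-DMB this rests on the limit: its values were above the plain mean of the negative controls in all lines. With the limit computed without the negative control probe NEG_A, chosen after the data were seen, HLA-DMB exceeded it in WT #7, at 17.1 against 14.4.

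Over the 9 probes, 8 had a log2 fold change below 0 and their median was -0.26. For the 475 gene probes whose mean lay in the same range, 2.69 to 82.7 normalised counts, 74.1% were below 0 and the median was -0.38. The count turned on single lines. Without KO #5, 4 of the 9 were below 0 with a median of 0.11, against 61.1% and -0.15 for the gene probes in range, and without WT #7, 4 of the 9 with a median of 0.03, against 67.2% and -0.27. In 3 of the 9 probes, HLA-DOB, HLA-DRB and HLA-DQB1, both knockout values were below both wild-type values, where 33.2% of all gene probes and 40.8% of those in range showed this, so that share is not above the background.

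**Figure D2:**
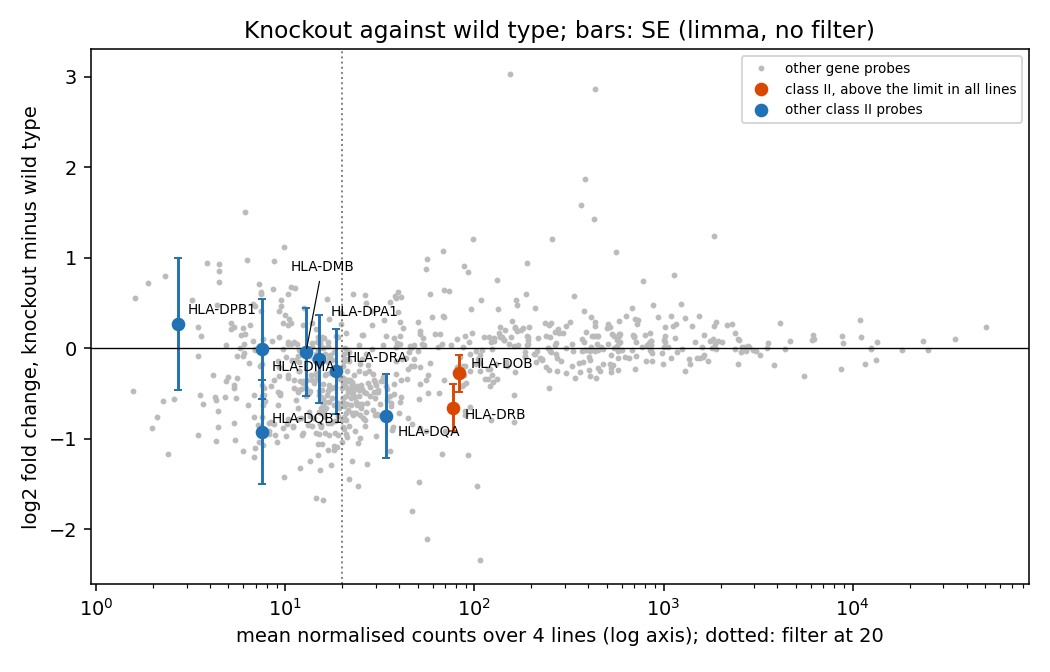
Log2 fold change of knockout minus wild type (limma without a filter) against the mean normalised count (log axis) for all gene probes, with the class II probes coloured and bars showing the SE. The class II probes lie within the cloud of genes of like abundance, with HLA-DRB at -0.66 and HLA-DOB at -0.28.

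KO #5 set much of the spread. It held the lowest of the 4 values in 6 of the 9 class II probes: HLA-DMA, HLA-DPA1, HLA-DQA, HLA-DQB1, HLA-DRA and HLA-DRB. Among the gene probes in the same range of means this was so for 55.8%, and over all gene probes for 41.3%. The median log2 difference of KO #5 minus KO #1 was -0.83 for the class II probes, -0.30 for gene probes in their range and -0.09 for all. The summed class II value was 264 and 321 in WT #1 and WT #7, 267 in KO #1 and 179 in KO #5. HLA-DOB and HLA-DRB made up most of each sum. Without them it was 87.6 and 129 in WT #1 and WT #7, 120 in KO #1 and 56.2 in KO #5. HLA-DOB did not share this drop, with 77.0 in KO #5 against 72.3 in KO #1. Nor did HLA-DPB1, at the level of the negative controls, with 5.20 in KO #5 against 1.11 in KO #1.

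**Figure D3:**
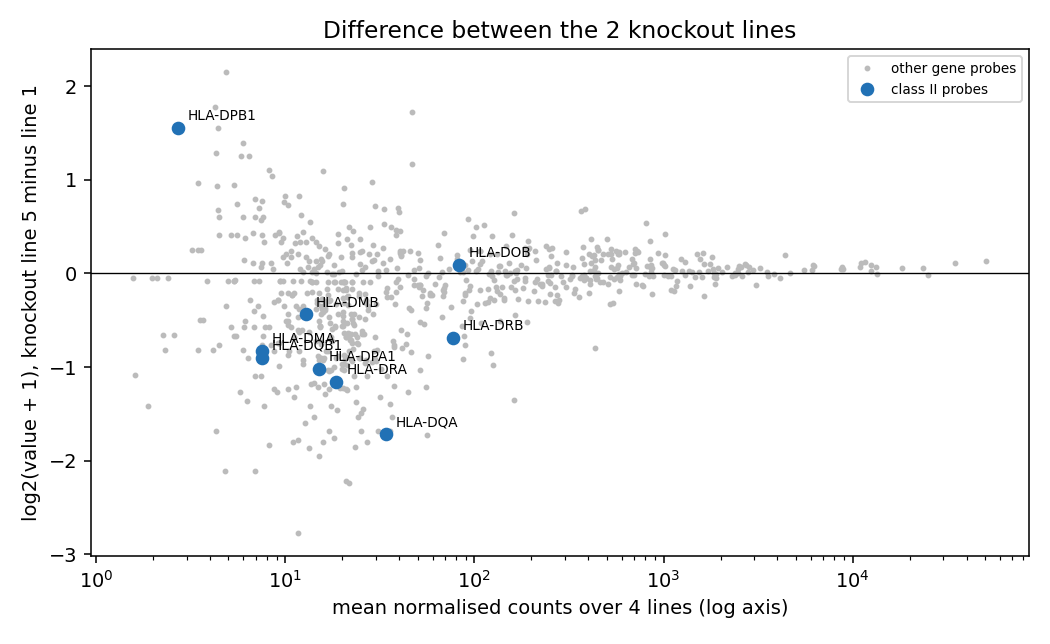
Difference of log2(value + 1) between KO #5 and KO #1 against the mean normalised count (log axis) for all gene probes, with the class II probes in blue. HLA-DQA, HLA-DRA, HLA-DPA1 and HLA-DRB lie below 0 and HLA-DOB lies at 0.09.

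Likeness was measured as the distance between log2(value + 1) profiles centred on their mean over the 4 samples, among genes within 2-fold of the member's mean. The nearest to HLA-DOB were TOLLIP (distance 0.08), PYCARD (0.10) and RUNX3 (0.12), where the median of 123 candidates was 0.50. For HLA-DRB they were JUN (0.15), IFITM3 (0.18) and CXCL14 (0.32). The nearest to HLA-DQA was FCGR1A/B, the probe of an Fc receptor of myeloid cells, at a distance of 0.05, with 31.3 and 41.9 normalised counts in WT #1 and WT #7 and 39.0 and 11.45 in KO #1 and KO #5. HLA-DRA and HLA-DMA each had HLA-DPA1 as their second nearest gene, at distances of 0.18 and 0.18. With 4 samples and low counts these are descriptions of pattern only.

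In gene order on chromosome 6, taken from RefSeq for order and names only, the HLA-DOB gene lies between HLA-DQB1 and TAP2 among the genes of the panel. On the side of TAP2 follow PSMB8, TAP1 and PSMB9, which encode subunits of the class I peptide transporter and of the immunoproteasome. TAP2, the direct neighbour, differed on the log2 scale by -0.07 ± 0.20 (SE; limma adjusted p = 0.875). PSMB8 rose by 1.58 ± 0.19 (SE; adjusted p = 0.000274), TAP1 by 0.60 ± 0.14 (adjusted p = 0.0242) and PSMB9 by 0.84 ± 0.23 (adjusted p = 0.0466). Without KO #5 the calls of TAP1 (0.57, adjusted p = 0.125) and PSMB9 (0.55, adjusted p = 0.346) were lost, and without WT #7 that of TAP1 (0.53, adjusted p = 0.0594). The fold change of TAP1 thus stayed near its full value, and that of PSMB9 was smaller. The class II probes on both sides of these genes did not pass: HLA-DRA, HLA-DRB, HLA-DQA, HLA-DQB1 and HLA-DOB on one side had values of -0.93 to -0.26, and HLA-DMB, HLA-DMA, HLA-DPA1 and HLA-DPB1 on the other had -0.12 to 0.27. Whether the class II and class I genes of the region differ in their change was not tested.

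**Figure D4:**
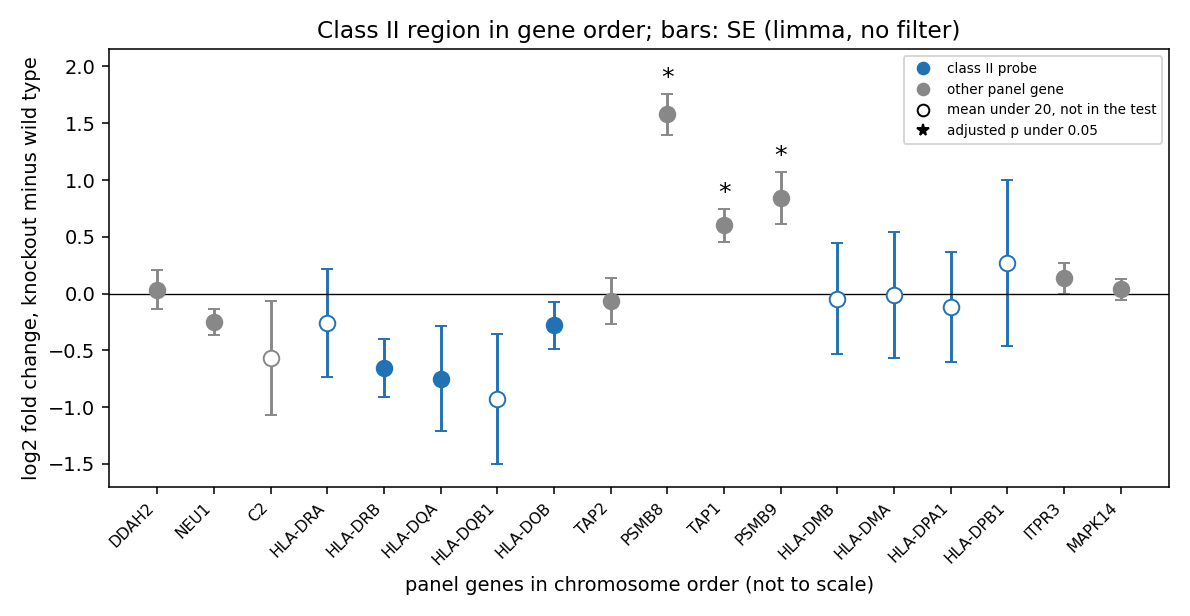
Log2 fold change of knockout minus wild type with its SE (limma without a filter) for panel genes in chromosome order around the class II region, with class II probes in blue, other genes in grey and open symbols for means under 20. PSMB8, TAP1 and PSMB9 carry the mark of an adjusted p under 0.05 in the filtered fit, and the class II probes on both sides do not.

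Of a list of 18 genes of class II transcription and its regulation through interferon-gamma, SOCS1 and EZH2 among them, 8 were measured and 6 tested. Of these 6, 0 passed in either direction, with a median log2 fold change of 0.03. By limma and by edgeR alike, 1 of the 6 was past an unadjusted p of 0.05, as were 19.8% and 19.1% of all tested genes, and 0 past the adjusted threshold. That gene was IFNGR2, a chain of the interferon-gamma receptor, with a log2 difference of 0.25 ± 0.07 (SE; limma adjusted p = 0.0598), which passed without WT #1 (adjusted p = 0.0475). IFNG itself was at 1.11 to 8.33 normalised counts, below the limit in all lines. IRF1, a transcription factor of the interferon-gamma response, was at 61.55 to 71.0 over the 4 lines, and the groups overlapped. CIITA, RFX5, RFXANK, RFXAP and the NF-Y subunits were not analysed here.

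Of 13 genes of class II peptide loading and endosomal processing, 4 were measured and 1 was tested, the protease gene CTSL, at 0.17 ± 0.12 (SE; limma adjusted p = 0.46). CTSS, the protease that trims the invariant chain, was at 16.7 and 32.5 normalised counts in WT #1 and WT #7 and at 14.5 and 9.37 in KO #1 and KO #5, above the limit in WT #7 only. Of 19 class I pathway genes set beside class II, 10 were measured and tested, 9 were above the limit in all lines, where 49.6% of all gene probes were, and 3 passed (PSMB8, TAP1 and PSMB9), each of them upward, where 8.17% of tested genes passed in either direction. The median of the 10 log2 fold changes was 0.22, against -0.04 over all tested genes, and without KO #5 only 1 of the 10, PSMB8, passed.

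Markers of cells that normally carry class II were mostly at background. Of 10 B cell markers, 7 were measured, and 6 of these were below the limit in all lines. CD22 was the exception, above the limit in 3 lines, at 26.1 and 28.2 in WT #1 and WT #7 and at 25.6 in KO #1. The summed value of the 7 was 89.7 and 118 in WT #1 and WT #7 and 74.5 and 70.8 in KO #1 and KO #5. Of 15 dendritic cell, monocyte and macrophage markers 10 were measured under their own names, with CD14, CD68 and XCR1 above the limit in all lines and 6 in none. Their summed values were 198 and 226 in WT #1 and WT #7 and 182 and 149 in KO #1 and KO #5. FCGR1A, also listed, is read by the shared FCGR1A/B probe, which these counts and sums leave out. That probe was at 31.3 and 41.9 in WT #1 and WT #7 and at 39.0 and 11.45 in KO #1 and KO #5, above the limit in all lines but KO #5. The probe named PTPRC, the gene of the pan-leukocyte antigen CD45, was below the limit in all lines at 6.68 to 9.39. Of the other CD45 probes, which are in no list, CD45RA had a mean of 44.79 normalised counts over all lines. That mean lay above the limits of 19.5 to 25.7. The means of CD45RB and CD45R0, 11.5 and 7.51, lay below them. The PTPRC probe alone thus does not place CD45 RNA at background. The sums of both marker lists, mostly of probes at background, were lower in both knockout lines, as were 40.8% of single gene probes in the class II range of means. CD163 and the B cell marker BLK, both below the limit in all lines, had higher means in the knockout lines. These were 11.96 against 9.07 for CD163 and 9.025 against 7.93 for BLK. The part of these cell types in the class II values was not tested.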

How the data were processed

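The authors deposited 1 table with a signal per probe and sample, for 785 gene probes, 6 positive and 8 negative control probes. The values show gene counts multiplied by 1 factor per sample (1.04 and 0.856 in WT #1 and WT #7, 1.11 and 1.04 in KO #1 and KO #5). All gene values were whole multiples within 0.006, except 4 at a floor in WT #7, taken as 1 count. Control probe values were unscaled counts. The submitters' processing notes name R 4.1.1, and the normalisation method is not given in the sources used here. Genes with a mean of 20 or more were tested with limma 3.58.1 (lmFit, eBayes with trend, R 4.3.3) on log2(value + 1), two-sided, with Benjamini-Hochberg adjustment and a threshold of 0.05. edgeR 4.0.16 was run on recovered counts with library sizes from the authors' factors. Both fits were also run on simulated data. The changes there were placed only in genes past the filter and were larger than those of the tested class II probes. The run therefore does not speak to smaller changes or to probes below the filter. No sample was left out of the main comparison. The members, lists and the rule for named genes (all members, list members that passed or crossed the background limit, the 3 nearest panel neighbours and the 3 genes of like pattern) were chosen with earlier results of these data known. IFNG and PTPRC, below the background limit in all lines, are named to describe their lists. The other CD45 probes, CD45RA, CD45RB and CD45R0, are in no list and are named beside PTPRC. Alternatives covered the filter, scaling, pseudocount, trend, test, background limit and single samples.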

Additional observations from a re-analysis of the deposited data

How the results depend on the processing

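The number of genes past the threshold, 42, was 29 to 47 under the other filters, scalings, pseudocount and edgeR settings, 4 under limma without the trend, and 29 to 77 without single samples, with 77 without KO #1. HLA-DOB kept its direction and did not pass in 12 of 12 alternatives, with log2 fold changes of -0.32 to -0.24, the range without single samples. HLA-DRB kept its direction in all 12, from -1.003 to -0.31 without single samples, and passed only without KO #1. HLA-DQA ranged from -1.61, without KO #1, to 0.11, without KO #5, and passed only in the former. Where a group keeps 1 sample, the residual spread comes from the other group alone. The limma fit also draws it toward a trend over all tested genes, so calls from such fits do not measure the spread within both groups.

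The number of class II probes above the background limit in all samples, 2, stayed HLA-DOB and HLA-DRB with a limit of mean plus 3 SD, with the highest negative control, and without NEG_A, the highest negative control probe, an alternative chosen after the data were seen. It was 6 with the plain mean of the negative controls as the limit, above which 77.8% of all gene probes also lay, and 2 to 3 without single samples, HLA-DQA being added without KO #5.

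The probes below the filter had no stable direction, apart from HLA-DQB1, which stayed below 0 in 10 of 10 alternatives, though at -0.43 with a pseudocount of 10. These alternatives were added after the data were seen. HLA-DMA, at -0.01 in the unfiltered fit, was at 0.012 with equal sample medians, 0.012 with positive control scaling, 0.0056 with a pseudocount of 10, 0.011 with edgeR and 0.078 with TMM factors. Without single samples HLA-DMA ranged from -0.43 to 0.40, HLA-DMB from -0.45 to 0.35, HLA-DPA1 from -0.63 to 0.39, HLA-DPB1 from -0.51 to 1.05, HLA-DQB1 from -1.38 to -0.48 and HLA-DRA from -0.84 to 0.32. Turned signs without WT #7 were 0.19 for HLA-DMA, 0.35 for HLA-DMB, 0.13 for HLA-DPA1 and 0.034 for HLA-DRA. That of HLA-DPB1 was -0.29 without WT #1 and -0.51 without KO #5. Without KO #5 the signs of HLA-DMA (0.40), HLA-DMB (0.17), HLA-DPA1 (0.39) and HLA-DRA (0.32) also turned. The cause of the reversals was not tested. HLA-DQA has no value with a filter at a mean of 50, and edgeR counts in WT #7 rest on the step above the floor.

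No paired analysis was possible because 1 is the single number found in both groups.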

Other observations

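Markers of T cells, which carry the receptors that read class II, gave a further view of the lowest counts. Of 8 such markers 7 were measured, with 0 above the background limit in all lines, 4 in none, and 3, CD3G, CD4 and CD8B, in some. Their summed value was 107 and 144 normalised counts in WT #1 and WT #7 and 100.2 and 74.9 in KO #1 and KO #5. CD8B, the largest of the 3 differences, stood at -0.79 ± 0.40 on the log2 scale (SE; limma adjusted p = 0.306), and was picked out after its value was seen. CD3G passed without KO #1, at -1.15 (limma adjusted p = 0.0476), and stood at -0.12 (adjusted p = 0.931) without KO #5. GBP2, a guanylate-binding protein induced by interferon, and IL5 were the second and the third nearest in pattern to HLA-DQA. GBP2 was at 27.1 and 35.9 in WT #1 and WT #7 and at 30.0 and 10.4 in KO #1 and KO #5. IL5 was at 41.7 and 49.6 in the wild-type lines and at 41.2 and 13.5 in the knockout lines.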
